A study of Homo sapiens with 12 samples.

Results

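The nuclear genes of oxidative phosphorylation were followed in A375 cells, a human melanoma cell line, that carried an empty retroviral vector or 1 of 3 mutants of the transcriptional coactivator YAP. The members were all gene symbols of the deposited expression table that begin with NDUFA, NDUFB, NDUFC, NDUFS, NDUFV, UQCR, ATP5, COX4, COX5, COX6, COX7 or COX8, together with SDHA, SDHB, SDHC and SDHD. This gave 96 symbols on 94 of the 31585 distinct loci of the table, since the readthrough symbols ATP5J2-PTCD1 and NDUFC2-KCTD14 share a locus with ATP5J2 and NDUFC2. By symbol, 37 members belonged to complex I, 4 were assembly factors of complex I, 4 belonged to complex II, 9 to complex III, 19 to complex IV and 16 to complex V. The other 7, which share a prefix but are not subunits of these complexes, were listed apart: ATP5EP2, UQCRBP1, ATP5S, ATP5SL, COX4NB and the 2 readthrough symbols.

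Oxidative phosphorylation takes place in the inner mitochondrial membrane. Complex I (NADH dehydrogenase) and complex II (succinate dehydrogenase) pass electrons to ubiquinone, complex III hands them to cytochrome c, and complex IV (cytochrome c oxidase) passes them to oxygen. The proton gradient built on the way drives complex V, the ATP synthase. Complex II is encoded wholly in the nucleus and is also an enzyme of the tricarboxylic acid cycle, whereas the other complexes also hold subunits encoded in mitochondrial DNA, which are not among the members. In melanoma, oxidative metabolism is known to be promoted by the melanocyte factor MITF through the coactivator PGC1α (PPARGC1A).

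Each of the 4 groups had 3 libraries. Control cells carried the vector MSCV-IRES-Hygro alone. YAP-S127A cells expressed YAP with 1 LATS phosphorylation site changed to alanine, and YAP-2SA cells expressed YAP with the changes S127A and S381A. YAP-S94A,S127A cells expressed the S127A form with the further change S94A, which prevents binding to TEAD transcription factors. All groups were derived from A375, were selected with hygromycin and were grown on plastic with serum; the sample records give 24 h of culture before lysis and the study's methods give 48 h. The design text says that replicates were plated from each selected line and names no separate transductions, so the p-values may measure no more than the spread between platings, and an effect of a construct and a difference between the transduced populations cannot be told apart. One field in the records of the YAP-2SA libraries also names S94A, whereas their titles do not, and the titles were followed.

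All libraries expressed the members at levels far above the typical locus. The values are FPKM, fragments per kilobase of transcript, scaled to the mapped fragments of the library, deposited as log2(FPKM + 1); depth per library is unknown. Between 20161 and 20656 loci per library were above 0. YAP1 stood at 34.1 and 33.0 FPKM in Control replicates 1 and 2 but at 171.8 FPKM in the library labelled Control replicate 3, within the 129.7 to 187.3 FPKM of the 9 libraries with YAP mutants. Changed counts of calls against Control, single calls that were lost and some that were gained are therefore also given without that library. Of the melanocyte markers checked, SOX10 (187.97 to 286.8 FPKM), S100B and MIA were abundant in the 9 libraries outside YAP-2SA, while PMEL, MLANA, TYR and DCT were below 0.6 FPKM in every library. In YAP-2SA, SOX10 was at 4.53, 7.25 and 6.69 FPKM and MITF was higher (33.9, 30.1 and 41.05 FPKM against 5.01, 9.73 and 11.0 in Control), and the part of these changes in the results below was not tested. Markers of lymphoid and endothelial cells (PTPRC, CD3E, PECAM1, CDH5) stayed at or below 0.53 FPKM in every library. The keratinocyte markers of the same list, KRT5 and KRT14, passed the filter on expression given below. Of these, 1 was called higher and 1 lower in YAP-2SA than in Control (log2 differences 1.32 and −2.45), also without Control replicate 3. In bulk RNA, fewer cells of a kind and less RNA per cell cannot be told apart.

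A locus entered the limma fit, made over all 12 libraries, if 3 or more of them reached 1 FPKM. It was called where its p, adjusted by Benjamini-Hochberg across the 15055 loci that entered, was under 0.05. Of the 94 member loci, 88 were tested. The median over members of the mean level was 101 FPKM, against 9.76 FPKM over all loci tested. Complex IV had the highest median (222 FPKM) and complex II the lowest among the complexes (68.6 FPKM), and levels within complex V ran from 58.4 FPKM to 1520 FPKM at the ATP5E locus. The 6 untested loci were tissue-restricted or low: COX4I2, COX6A2 and COX8C were listed at 0 in every library, COX7A1 and ATP5L2 stayed below 0.7 FPKM, and COX6B2 is described below.

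The members that carried the largest change were ATP5E and its processed copy ATP5EP2. ATP5E encodes the epsilon subunit of the ATP synthase and now has the symbol ATP5F1E. In the GENCODE annotation of GRCh37, the build the files use, it lies on the minus strand at chr20:57600530-57607400, and its row of the table also lists the neighbouring gene SLMO2 and the readthrough SLMO2-ATP5E, so the value is that of a shared locus. ATP5EP2 is annotated as a processed pseudogene on the plus strand at chr13:28519397-28519552. Its whole length of 156 bases aligns with the open reading frame of ATP5E, with 150 identical bases (96.2%). Both are shown 5′ to 3′ from the GENCODE transcripts because reads of such copies can be divided between them; capitals mark the 6 positions at which they differ:
ATP5E: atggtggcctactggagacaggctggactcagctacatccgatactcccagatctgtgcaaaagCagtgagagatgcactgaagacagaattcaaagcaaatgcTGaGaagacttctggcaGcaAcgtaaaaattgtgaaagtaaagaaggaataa
ATP5EP2: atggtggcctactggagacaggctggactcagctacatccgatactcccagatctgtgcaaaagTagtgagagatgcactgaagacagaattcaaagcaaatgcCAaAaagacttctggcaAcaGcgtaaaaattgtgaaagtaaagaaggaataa

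The ATP5E locus was at 1709, 1895 and 1915 FPKM in Control and at 1959, 1988 and 1934 FPKM in YAP-S94A,S127A. It was at 1428, 1699.8 and 1430.2 FPKM in YAP-S127A and at 744, 796 and 744 FPKM in YAP-2SA. Every YAP-2SA library lay below every other library, and the YAP-S127A libraries lay below those of Control with replicate 2 of YAP-S127A closest to them. Against Control, YAP-2SA was 2.42-fold lower (762 ± 30.1 against 1840 ± 114 FPKM, mean ± SD, n = 3 each, log2 difference −1.27 ± 0.08 SE, limma adjusted p = 4.2e-07). Without Control replicate 3 the log2 difference was −1.24 ± 0.09. It was also lower than in YAP-S127A (−0.99 ± 0.08, adjusted p = 5.4e-06) and than in YAP-S94A,S127A (−1.36 ± 0.08, adjusted p = 2.3e-07). In YAP-S127A the difference from Control did not pass the test (−0.28 ± 0.08, adjusted p = 0.074), while that from YAP-S94A,S127A did (−0.37 ± 0.08, adjusted p = 0.015). The last call was lost without YAP-S127A replicate 1 or replicate 3, with quantile normalization, and when the fit held just these 6 libraries.

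ATP5EP2 was at 6.40, 8.66 and 8.62 FPKM in Control and at 3.48, 2.91 and 3.20 FPKM in YAP-2SA, 2.47-fold lower (log2 difference −1.07 ± 0.13, limma adjusted p = 5.8e-05). It was at 4.08, 5.47 and 5.27 FPKM in YAP-S127A and at 8.23, 9.59 and 8.18 FPKM in YAP-S94A,S127A. The 3 groups of Control, YAP-S127A and YAP-2SA did not overlap, and YAP-S127A was called lower than Control (−0.58 ± 0.13, limma adjusted p = 0.023). Without Control replicate 3 the latter call was lost (adjusted p = 0.086), and YAP-2SA was still lower than Control (−1.01 ± 0.14). Given the likeness of the copies and that how multiply aligned reads were assigned is not given in the sources used here, the pseudogene cannot be counted as a change separate from that of ATP5E. The counts of members below still hold both loci, and counts of subunits only are given at the end.

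**Figure D1:**
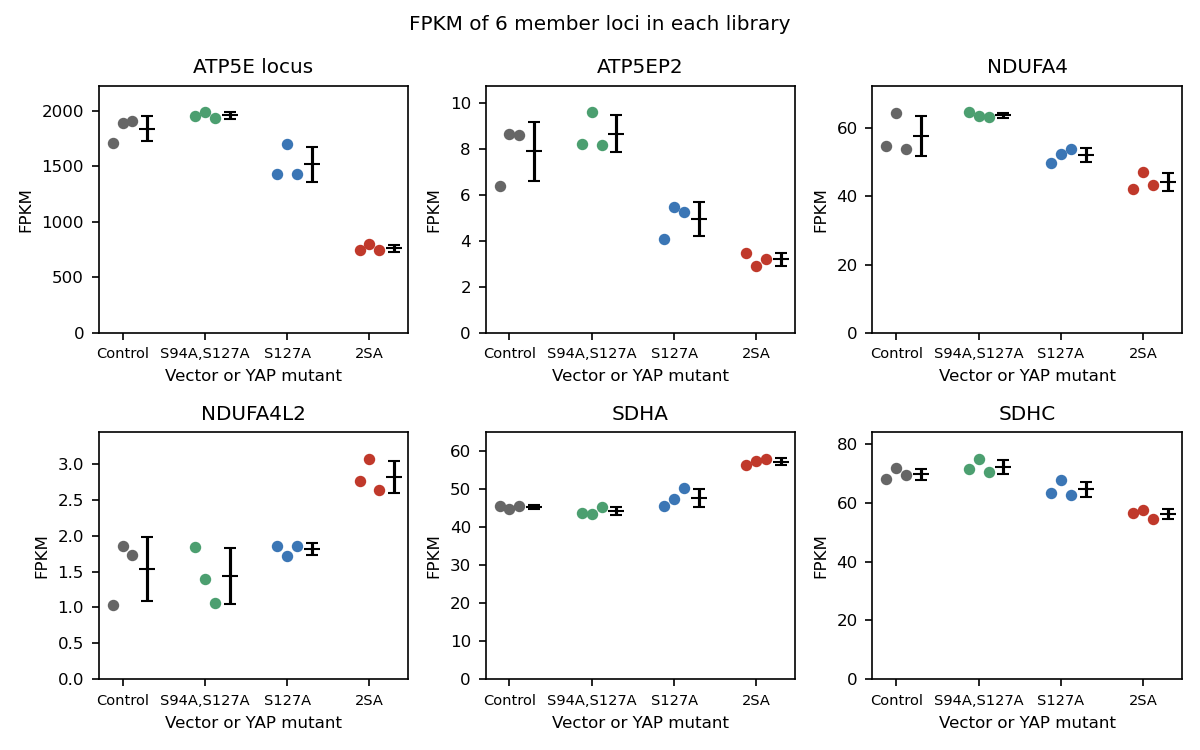
FPKM (linear axes from 0) of 6 member loci in each library by group; points are libraries and the black marks are the mean ± SD of 3 libraries. The ATP5E locus fell from 1709 to 1915 FPKM in Control to 744 to 796 FPKM in YAP-2SA, while SDHA rose and SDHC fell.

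The comparison of YAP-2SA with Control asked how the nuclear oxidative phosphorylation genes stood in cells with the double phosphorylation-site mutant. The 6 pairwise comparisons below share libraries and are not independent of each other. Of the 88 member loci tested, 13 were called higher and 11 lower, and 64 were not called. The background over all loci tested was 22.9% higher and 19.5% lower, against 14.8% and 12.5% of the members, a smaller share of the members in both directions, with no test of that difference. The median log2 difference was −0.03 over the members and 0.01 over all loci, and apart from ATP5E and ATP5EP2 every called difference was below 2-fold. The split depended on the scaling: quantile normalization gave 5 higher and 33 lower, and median-ratio scaling 13 and 13. Without Control replicate 3, the library with high YAP1, 9 members were higher and 15 lower. Of the 24 calls, 14 held in all 20 alternative fits: NDUFA3, SDHA, UQCR10 and UQCRC2 were higher, and ATP5E, ATP5EP2, ATP5J, COX7A2, NDUFA4, NDUFA5, NDUFB9, NDUFC1, NDUFS3 and SDHC were lower.

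**Figure D2:**
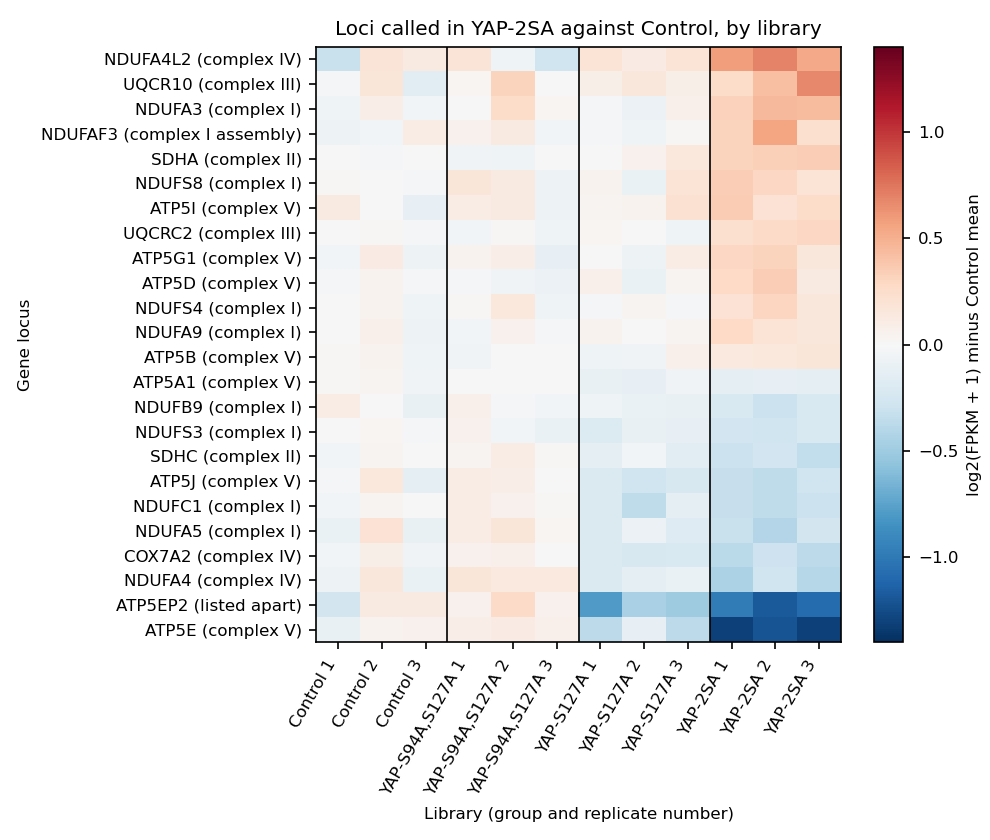
The 24 member loci called in YAP-2SA against Control (rows) in each of the 12 libraries (columns); colour is log2(FPKM + 1) minus the Control mean, red higher and blue lower. Rows run from NDUFA4L2 (0.61) to the ATP5E locus (−1.27). They were chosen by this call, so the direction shared by the 3 YAP-2SA columns largely follows from that choice. The YAP-S94A,S127A columns are pale.

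In complex I, 4 subunits were called higher and 4 lower of 37 tested in YAP-2SA. The called share was 21.6%, against 42.3% of all loci. Without Control replicate 3, 3 were higher and 6 lower. NDUFA3, an accessory subunit, was at 113, 126 and 115 FPKM in Control and at 148, 162 and 160.5 FPKM in YAP-2SA (log2 difference 0.41 ± 0.08, limma adjusted p = 0.0016). NDUFS8, a core subunit that holds iron-sulfur clusters, was at 108, 106 and 105 FPKM in Control and at 135, 130.2 and 121 FPKM in YAP-2SA (0.27 ± 0.08, adjusted p = 0.019), a call lost without Control replicate 3. NDUFS4 (0.22 ± 0.06, adjusted p = 0.012) and NDUFA9 (0.21 ± 0.05, adjusted p = 0.0094) rose by less, and neither was called with quantile normalization. In all 4 the YAP-2SA libraries lay above all Control libraries. Such a lack of overlap, in either direction, was common: it held for 7956 of the 15055 loci tested. Among the members it held for 33 of 88, and in complex I for 10 of 37.

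NDUFC1, an accessory subunit, was at 103, 109.5 and 106 FPKM in Control, at 92.1, 82.8 and 96.3 FPKM in YAP-S127A, at 114.6, 111 and 107.5 FPKM in YAP-S94A,S127A and at 85.0, 83.1 and 86.0 FPKM in YAP-2SA. The YAP-2SA libraries lay below all Control and all YAP-S94A,S127A libraries (against Control, −0.32 ± 0.06, limma adjusted p = 0.00097). NDUFA5 was at 41.1, 50.6 and 40.6 FPKM in Control and at 35.2, 32.8 and 36.6 FPKM in YAP-2SA (−0.32 ± 0.08, adjusted p = 0.01). NDUFS3, a core subunit whose row also lists PTPMT1, was at 98.9, 100.5 and 97.2 FPKM in Control and at 82.2, 81.4 and 85.3 FPKM in YAP-2SA (−0.25 ± 0.05, adjusted p = 0.0019). NDUFB9 fell to a like extent (−0.24 ± 0.06, adjusted p = 0.0068). NDUFA9 and NDUFB9 were named to complete the counts, after their values were seen. The rises and falls included both the 7 nuclear core subunits (1 higher, 1 lower) and the 30 accessory ones (3 higher, 3 lower). The called share of complex I, 21.6%, was below the 42.3% of all loci. The 1 core rise, NDUFS8, was lost without Control replicate 3. NDUFS1 and NDUFV1, core subunits of the NADH-oxidizing part of the enzyme, were not called (−0.08 ± 0.07 and 0.12 ± 0.07, adjusted p = 0.38 and 0.18). Of the 4 assembly factors, NDUFAF3 was higher, at 65.3, 76.9 and 61.4 FPKM in YAP-2SA against 49.7, 51.1 and 56.4 FPKM in Control (0.36 ± 0.08, adjusted p = 0.0051).

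Of the 4 subunits of complex II, 1 was called higher in YAP-2SA, 1 lower and 2 were not called. Of all loci, 42.3% were called, so 2 calls among 4 loci do not set complex II apart. SDHA, the flavoprotein that oxidizes succinate, was at 45.5, 44.7 and 45.4 FPKM in Control, at 45.4, 47.2 and 50.2 FPKM in YAP-S127A, at 43.7, 43.4 and 45.3 FPKM in YAP-S94A,S127A and at 56.2, 57.4 and 57.9 FPKM in YAP-2SA. All YAP-2SA libraries were above all others (1.26-fold over Control, log2 difference 0.33 ± 0.05, limma adjusted p = 0.00016). SDHC, a membrane anchor of the complex, was at 68.0, 71.9 and 69.3 FPKM in Control, at 63.4, 67.6 and 62.8 FPKM in YAP-S127A, at 71.6, 74.95 and 70.4 FPKM in YAP-S94A,S127A and at 56.6, 57.6 and 54.5 FPKM in YAP-2SA. All YAP-2SA libraries were below all others (1.24-fold lower than Control; −0.30 ± 0.05, adjusted p = 0.00039). The iron-sulfur subunit SDHB (0.12 ± 0.06, adjusted p = 0.12) and the other anchor SDHD (−0.02 ± 0.05, adjusted p = 0.86) were not called. Both calls, of SDHA and of SDHC, also held for YAP-2SA against YAP-S127A and against YAP-S94A,S127A in all 20 alternative fits.

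In complex III, 2 of 9 loci were called and both were higher in YAP-2SA, a called share of 22.2% against 42.3% of all loci. UQCR10, a small subunit, was at 269, 308 and 245 FPKM in Control and at 327, 365 and 435 FPKM in YAP-2SA, 1.37-fold higher (log2 difference 0.45 ± 0.12, limma adjusted p = 0.012). Its YAP-2SA libraries spread widely and the lowest lay just above the highest Control library. UQCRC2, a core protein, was at 66.4, 66.7 and 64.7 FPKM in Control and at 77.4, 79.5 and 80.7 FPKM in YAP-2SA (0.26 ± 0.04, adjusted p = 0.00048). The partner core protein UQCRC1 (0.04 ± 0.05, adjusted p = 0.52) and the Rieske iron-sulfur protein UQCRFS1 (0.06 ± 0.07, adjusted p = 0.51) were not called. UQCRH (−0.16 ± 0.06, adjusted p = 0.066) and its near copy UQCRHL (−0.10 ± 0.07, adjusted p = 0.26), which share 98.1% of 515 aligned bases, were not called either, although UQCRH was lower without Control replicate 3 (−0.21 ± 0.06, limma adjusted p = 0.017).

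In complex IV, 1 of 14 tested loci was called higher and 2 lower in YAP-2SA, and 2 of these 3 are a pair of paralogues. The called share was 21.4%, against 42.3% of all loci. Without Control replicate 3, 1 was higher and 3 lower. NDUFA4, long listed with complex I and now placed in cytochrome c oxidase, was at 54.9, 64.4 and 54.0 FPKM in Control, at 49.9, 52.6 and 53.9 FPKM in YAP-S127A, at 64.7, 63.6 and 63.3 FPKM in YAP-S94A,S127A and at 42.1, 47.3 and 43.4 FPKM in YAP-2SA. It was 1.30-fold lower in YAP-2SA than in Control (log2 difference −0.37 ± 0.07, limma adjusted p = 0.0016). NDUFA4L2, its paralogue known as a target of hypoxia-inducible factor, was at 1.03, 1.85 and 1.73 FPKM in Control, at 1.86, 1.72 and 1.86 FPKM in YAP-S127A, at 1.84, 1.3999 and 1.06 FPKM in YAP-S94A,S127A and at 2.76, 3.07 and 2.64 FPKM in YAP-2SA. It was 1.84-fold higher (0.61 ± 0.15, adjusted p = 0.0067) but stayed far below NDUFA4 in every library, and a filter at 5 FPKM left it untested. COX7A2, the widely expressed form of subunit VIIa, was at 171, 186 and 169.9 FPKM in Control and at 135, 143 and 136 FPKM in YAP-2SA (−0.35 ± 0.05, adjusted p = 0.00019).

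The other isoform pairs of complex IV were not called. COX4I1, the ubiquitous form of subunit IV, was between 294 and 343 FPKM over the 12 libraries (YAP-2SA against Control, −0.03 ± 0.05, limma adjusted p = 0.68), while its hypoxia-associated partner COX4I2 was listed at 0. COX6A1 (0.01 ± 0.08, adjusted p = 0.97), COX6B1 (0.09 ± 0.07, adjusted p = 0.33), COX8A (−0.11 ± 0.08, adjusted p = 0.30), COX5A (−0.01 ± 0.08, adjusted p = 0.93) and COX7B (−0.15 ± 0.08, adjusted p = 0.19) were not called. COX7B2, a low partner of COX7B, ranged from 1.19 to 5.45 FPKM (−0.07 ± 0.32, adjusted p = 0.88), with the widest error of all members. COX6B2, the testis form of subunit VIb, whose row also lists FAM71E2, was at 0.637, 0.849 and 0.684 FPKM in YAP-2SA and between 0.0951 and 0.314 FPKM in the other 9 libraries. It was below the filter; with no filter the log2(FPKM + 1) difference from Control was 0.52 ± 0.06 (adjusted p = 9.2e-05).

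In complex V, 4 loci were called higher and 3 lower of 15 tested in YAP-2SA, a called share of 46.7% that was near the 42.3% of all loci. Beside the ATP5E locus, ATP5J, which encodes coupling factor 6 of the stalk, was at 173, 195 and 161 FPKM in Control and at 141, 137 and 145 FPKM in YAP-2SA (log2 difference −0.32 ± 0.07, limma adjusted p = 0.0032). The alpha and beta subunits moved apart by small amounts, ATP5A1 (alpha) by −0.12 ± 0.04 (adjusted p = 0.031) and ATP5B (beta) by 0.15 ± 0.05 (adjusted p = 0.039). These calls were lost in 7 and 11 of the 20 alternative fits. ATP5I was higher by 0.27 ± 0.08 (adjusted p = 0.021). ATP5D, the delta subunit that neighbours epsilon in the central stalk, was higher: 93.7, 98.4 and 94.1 FPKM in Control and 116, 121 and 104 FPKM in YAP-2SA (0.25 ± 0.06, adjusted p = 0.0094). Of the 3 genes that encode the identical subunit c of the rotor, ATP5G1 was higher (0.25 ± 0.08, adjusted p = 0.024), while ATP5G2 (0.14 ± 0.06, adjusted p = 0.089) and ATP5G3 (−0.06 ± 0.06, adjusted p = 0.44) were not called. The calls of ATP5G1, ATP5I and ATP5B were lost without Control replicate 3, and those of ATP5D, ATP5G1, ATP5I and ATP5B with quantile normalization.

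**Figure D3:**
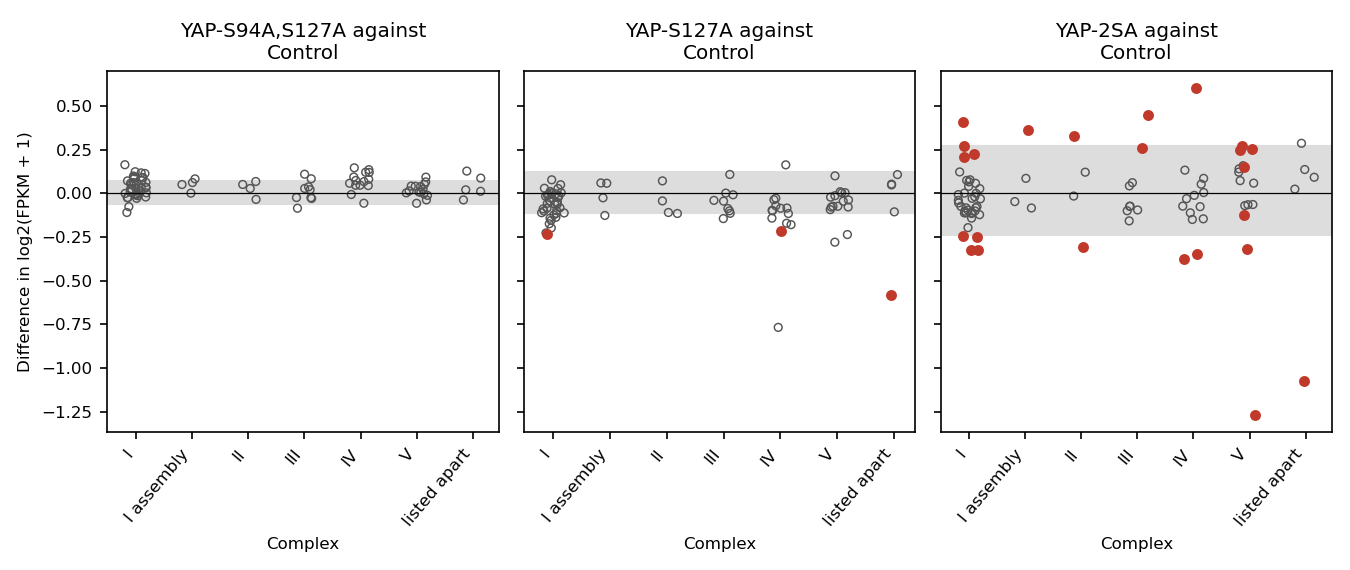
Difference in log2(FPKM + 1) from Control for each tested member locus (points, horizontally scattered for legibility) by complex, in YAP-S94A,S127A, YAP-S127A and YAP-2SA; filled red points were called, and the grey band is the interquartile range of all 15055 loci tested. Calls number 0, 3 and 24 from left to right, and the open point at −0.77 in the middle panel is COX7B2.

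The levels of the members were also summed, with and without the ATP5E locus. The members summed to 15803 ± 720.1 FPKM in Control, 14904 ± 378 in YAP-S127A, 16282 ± 411 in YAP-S94A,S127A and 14759 ± 142 in YAP-2SA (mean ± SD, n = 3 each). This was 1.86% of all FPKM in Control and 1.71% in YAP-2SA. Without the ATP5E locus the sums were 13963 ± 718 FPKM in Control, 13385 ± 435 in YAP-S127A, 14321 ± 385 in YAP-S94A,S127A and 13997 ± 112 in YAP-2SA. As shares of all FPKM these were 1.644 ± 0.040%, 1.622 ± 0.036%, 1.639 ± 0.022% and 1.618 ± 0.004%, so by share YAP-2SA was below Control. The sign of the difference in summed FPKM between Control and YAP-2SA turned on Control replicate 3: without it the Control mean was 14317 FPKM (13943 and 14691 in the 2 libraries left), above YAP-2SA. The ATP5E locus made up 10.9 to 12.6% of the members' sum in the Control libraries and 5.06 to 5.34% in the YAP-2SA libraries.

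**Figure D4:**
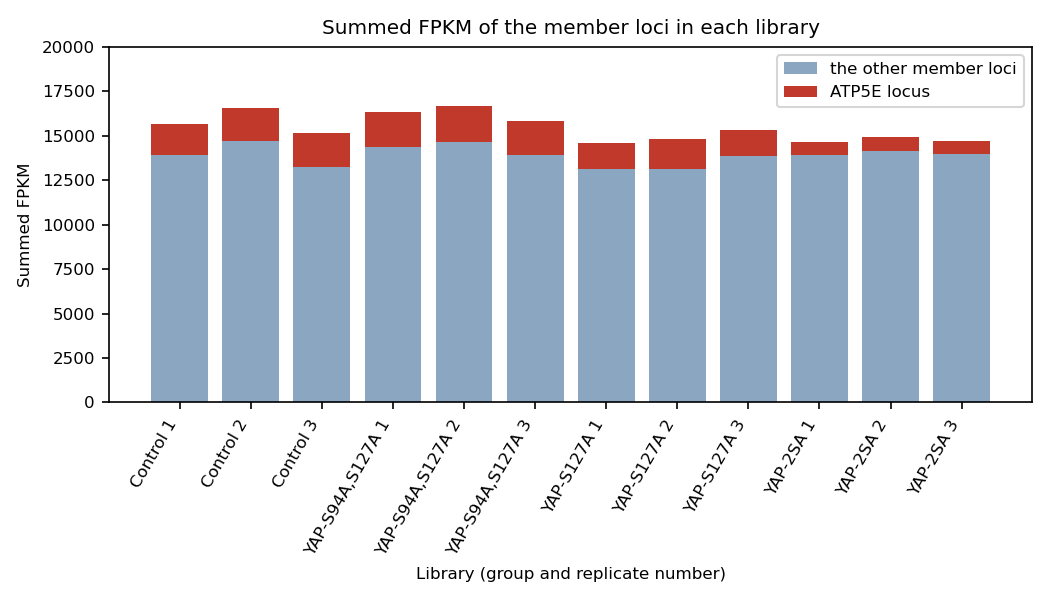
Summed FPKM of the 94 member loci in each library, with the ATP5E locus in red above the other member loci in blue (bars start at 0). The blue part averages 13963 FPKM in Control and 13997 FPKM in YAP-2SA, while the red part is 744 to 796 FPKM in YAP-2SA and 1709 to 1915 FPKM in Control.

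The comparison of YAP-S127A with Control asked what the single mutant did. No member was called higher and 3 were called lower, against a background of 4.56% higher and 1.75% lower over all loci. The 3 were ATP5EP2 (described above), COX7A2 and NDUFC1. COX7A2 was at 152, 149.6 and 151 FPKM in YAP-S127A, below all Control libraries (log2 difference −0.21 ± 0.05, limma adjusted p = 0.026), and NDUFC1 differed by −0.23 ± 0.06 (adjusted p = 0.037), a call lost in 14 of the 20 alternative fits. None of the 3 was called without Control replicate 2, without YAP-S127A replicate 1, or when the fit held just these 6 libraries, and without Control replicate 3 the 2 members called lower were COX7A2 and ATP5J. Of the 88 members, 68 had a difference below 0 (median −0.06), against 50.5% of all loci, and at an unadjusted p under 0.05 there were 14 members lower and 0 higher, against 1277 and 1676 of all loci. The cytosolic ribosomal proteins had a like lean, with 69 of 82 below 0, while 44 of 76 mitochondrial ribosomal proteins and 20 of 37 proteasome genes were. Without Control replicate 3, 78 of the 88 members were below 0 (median −0.10), against 7847 of 14982 loci. Below 0 there were then 72 of 82 cytosolic and 60 of 76 mitochondrial ribosomal proteins and 28 of 37 proteasome genes.

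The comparison of YAP-S94A,S127A with Control asked what the mutant that cannot bind TEADs did. No member was called in either direction by limma, against a background of 0.0864% higher and 0.093% lower over all loci. At an unadjusted p under 0.05, 1 member was higher and 0 were lower. The member differences ran from −0.11 to 0.16 with a median of 0.04, and 67 of 88 were above 0, against 7889 of 15055 loci and 63 of 82 cytosolic ribosomal proteins. Without Control replicate 3 no member was called either, and 43 of 88 were above 0.

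Between the 2 mutants that differ by S94A, 0 members were higher and 10 were lower in YAP-S127A, against a background of 6.36% higher and 4.31% lower. The 11.4% of members called lower were ATP5E, ATP5EP2, ATP5J, COX7A2, NDUFA4, NDUFB1, NDUFB3, NDUFB11, NDUFC1 and UQCRQ. Of these, ATP5J was at 153, 145 and 149.9 FPKM in YAP-S127A and at 188, 188 and 176 FPKM in YAP-S94A,S127A (log2 difference −0.30 ± 0.07, limma adjusted p = 0.017). NDUFA4 differed by −0.29 ± 0.07 (adjusted p = 0.027), NDUFC1 by −0.30 ± 0.06 (adjusted p = 0.0082) and COX7A2 by −0.26 ± 0.05 (adjusted p = 0.0066). The accessory subunits NDUFB1 (−0.29 ± 0.07, adjusted p = 0.033), NDUFB3 (−0.24 ± 0.06, adjusted p = 0.032) and NDUFB11 (−0.22 ± 0.06, adjusted p = 0.038) of complex I and UQCRQ of complex III (−0.23 ± 0.06, adjusted p = 0.033) completed the set. Of the 10, 8 were on rows of 1 symbol, and the values of the others are those of shared loci. Only ATP5EP2 and COX7A2 held in all 20 alternative fits. The count fell to 4 without YAP-S127A replicate 1 or YAP-S94A,S127A replicate 1, to 5 without YAP-S94A,S127A replicate 2 or 3, to 6 without YAP-2SA replicate 1, and rose to 16 without Control replicate 2. Values below 0 were found for 70 of the 88 members and 70 of 82 cytosolic ribosomal proteins, against 51.4% of all loci. They were found for 13 of 14 tested loci of complex IV and 32 of 37 of complex I. In complexes II, III and V they were found for 3 of 4, 6 of 9 and 11 of 15. Of the assembly factors and the loci listed apart, 3 of 4 and 2 of 5 were below 0.

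The comparison of YAP-2SA with YAP-S127A, which differ by 1 further phosphorylation site, gave 12 members higher and 4 lower, against a background of 18.3% higher and 14.5% lower. The 4 lower were ATP5E, ATP5EP2, NDUFA4 (log2 difference −0.23 ± 0.07, limma adjusted p = 0.029) and SDHC (−0.20 ± 0.05, adjusted p = 0.0091). The rises included UQCRC2 (0.27 ± 0.04, adjusted p = 0.00061), SDHA (0.26 ± 0.05, adjusted p = 0.0014), NDUFA3 (0.42 ± 0.08, adjusted p = 0.002) and NDUFAF3 (0.39 ± 0.08, adjusted p = 0.0049), which held in all 20 alternative fits. COX7C, a small subunit of complex IV, was at 922, 949.8 and 902 FPKM in YAP-2SA and at 799.6, 832 and 777 FPKM in YAP-S127A (0.20 ± 0.05, adjusted p = 0.013). This call was lost with quantile normalization (adjusted p = 0.24) and when the fit held just the 6 libraries. The call of NDUFA4 was lost without YAP-S127A replicate 2 or 3 or YAP-2SA replicate 1 or 3, and that of ATP5EP2 without YAP-S127A replicate 2. COX7A2, called in both mutants against Control, did not differ between them at the threshold (−0.13 ± 0.05, adjusted p = 0.06), nor did NDUFC1 (−0.09 ± 0.06, adjusted p = 0.27). The count of members higher fell to 6 without YAP-S127A replicate 2 and to 5 without YAP-2SA replicate 2, and rose to 18 without YAP-S127A replicate 3; quantile normalization gave 5 higher and 14 lower.

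The comparison of YAP-2SA with YAP-S94A,S127A gave 11 members higher and 17 lower, against a background of 23.2% higher and 20.3% lower. The YAP-S94A,S127A libraries are separate from those of Control, but the YAP-2SA libraries are the same as above. The spread was estimated over all 12 libraries, so the calls also depend on Control. That of NDUFB1 was lost without Control replicate 2, and that of UQCR10 without Control replicate 1. NDUFA4 (log2 difference −0.52 ± 0.07, limma adjusted p = 0.00015), NDUFA5 (−0.42 ± 0.08, adjusted p = 0.0021), COX7A2 (−0.39 ± 0.05, adjusted p = 7e-05), NDUFC1 (−0.39 ± 0.06, adjusted p = 0.00027) and ATP5J (−0.38 ± 0.07, adjusted p = 0.00093) were lower. Further subunits were called lower here and not against Control, among them COX5B of complex IV (−0.23 ± 0.06, adjusted p = 0.0071) and NDUFV2, a core subunit of complex I (−0.24 ± 0.06, adjusted p = 0.0065). In complex I, 9 of 37 loci were lower and 3 higher. Of the 28 calls, 18 held in all 20 alternative fits; quantile normalization gave 6 higher and 33 lower, and 7 members were higher without YAP-S94A,S127A replicate 3 or YAP-2SA replicate 2.

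The genes around the respiratory chain were described from fixed lists in YAP-2SA against Control. Of 33 electron carriers and assembly genes, 6 were higher and 8 lower (median log2 difference 0.04), a called share of 42.4% that was at the 42.3% of all loci. Without Control replicate 3, 3 were higher and 6 lower. COX17, the copper chaperone of complex IV, was at 203, 212 and 177 FPKM in Control and at 125, 129 and 132 FPKM in YAP-2SA, the largest fall of the list (−0.61 ± 0.07, limma adjusted p = 6.6e-05), and it was also lower in YAP-S127A than in YAP-S94A,S127A (−0.33 ± 0.07, adjusted p = 0.017). ACAD9, needed for the assembly of complex I, had the largest rise (0.41 ± 0.06, adjusted p = 0.00033). Cytochrome c (CYCS, 0.04 ± 0.09, adjusted p = 0.76), cytochrome c1 (CYC1, 0.13 ± 0.09, adjusted p = 0.27) and the ATP synthase inhibitor ATPIF1 (0.10 ± 0.06, adjusted p = 0.22) were not called.

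Of 13 enzymes of the tricarboxylic acid cycle, 3 were higher, OGDH (0.36 ± 0.08, limma adjusted p = 0.0049), FH (0.34 ± 0.07, adjusted p = 0.0021) and SUCLG1 (0.27 ± 0.05, adjusted p = 0.001), and 1 was lower, citrate synthase (CS, −0.18 ± 0.04, adjusted p = 0.0072). The called share was 30.8%, against 42.3% of all loci. Of 13 tested regulators of mitochondrial genes, 3 were higher and 4 lower, a called share of 53.8% against 42.3% of all loci. Without Control replicate 3, 1 was higher and 4 lower. The tricarboxylic acid cycle counts were 3 and 1 without it too. TFB1M, a methyltransferase of the mitochondrial ribosome, was at 27.1, 41.1 and 35.1 FPKM in Control and at 14.1, 17.3 and 18.1 FPKM in YAP-2SA (−1.005 ± 0.15, adjusted p = 0.00028). ESRRA, a nuclear receptor that binds promoters of respiratory genes, was lower (−0.32 ± 0.08, adjusted p = 0.011), as were GABPA (−0.19 ± 0.06, adjusted p = 0.031) and TFB2M (−0.23 ± 0.06, adjusted p = 0.012). MITF, 1 of the 3 called higher, differed by 1.96 ± 0.26 (adjusted p = 0.00013). NRF1 (0.23 ± 0.10, adjusted p = 0.096), TFAM (0.15 ± 0.07, adjusted p = 0.12), YY1 (0.06 ± 0.06, adjusted p = 0.49) and PPARGC1B (−0.02 ± 0.08, adjusted p = 0.85) were not called. PPARGC1A was below the filter, at 0.197, 0.236 and 0.203 FPKM in YAP-2SA and between 0.0403 and 0.110 FPKM in the other 9 libraries.

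Of 76 mitochondrial ribosomal proteins, 19 were higher and 1 lower (median log2 difference 0.11), of 82 cytosolic ribosomal proteins 7 were higher and 3 lower (0.03), and of 37 proteasome genes 7 were higher and 2 lower (0.09). Without Control replicate 3 these counts were 13 and 3, 6 and 1, and 3 and 5. In these 3 lists, as in the members, the share called lower was under the 19.5% of all loci. The share of the mitochondrial ribosome called higher was near the background of 22.9%.

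**Figure D5:**
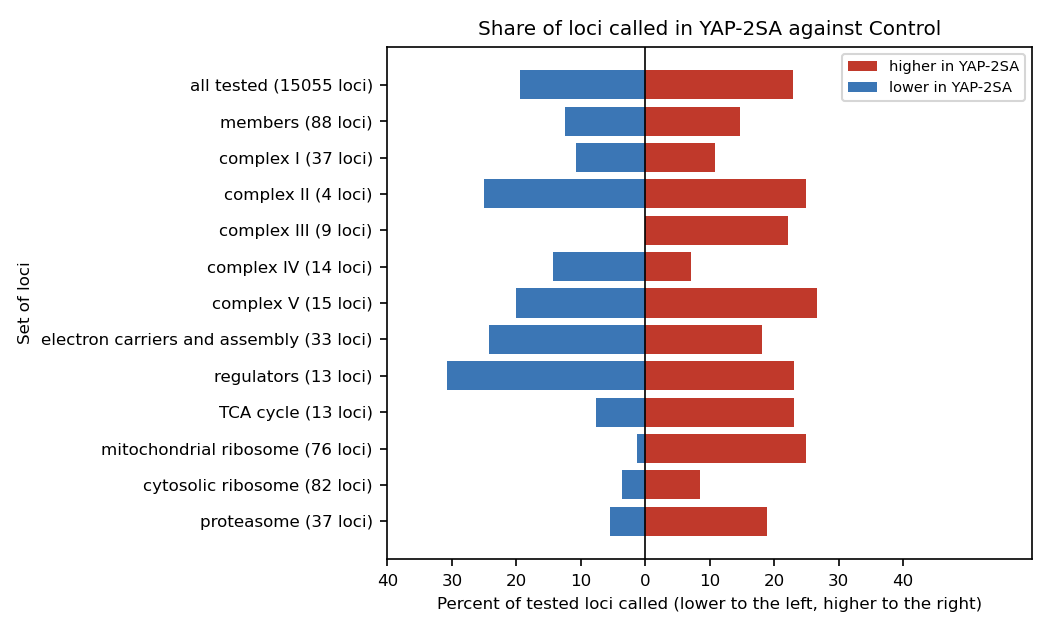
Percent of tested loci called lower (blue, to the left) and higher (red, to the right) in YAP-2SA against Control, for all loci, the members, 5 complexes and 6 further lists, with the number of loci tested in brackets. The members (12.5% lower, 14.8% higher) are below all loci (19.5% and 22.9%) on both sides; complex II holds 4 loci, of which 1 was called in each direction.

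The promoters of members were searched for 5 short motifs on both strands, in windows from 250 bases before to 50 bases after the RefSeq start (GRCh38.p14). A window was held for 75 of the 94 member loci. The NRF1 motif GCATGCG stood in 14 of these (18.7%) and in 4.11% of all 27195 windows, and the ETS motif CCGGAAG, bound by GABPA among others, in 21 (28.0%) and 10.7%. The YY1 motif GATGGCG stood in 9 member windows and 4.36% of all, the TEAD motif GGAATG in 7 and 14.04%, and the E-box CACGTG in 7 and 7.45%. Of windows of members called in YAP-2SA against Control, the TEAD motif stood in 2 of 11 of those higher and 2 of 8 of those lower, and in 3 of 53 of those not called. The other motifs stood, in the same order, in 1, 1 and 12 windows (NRF1), 1, 2 and 18 (ETS), 2, 1 and 6 (YY1) and 2, 0 and 5 (E-box), and these small counts were not tested. The other windows belong to untested loci.

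The 250 bases before the start are shown 5′ to 3′ for the epsilon subunit of complex V, the flavoprotein of complex II and for a fallen and a risen subunit whose windows hold the TEAD motif, with each motif match in capitals. A match is a description of the letters only. ATP5E lies at chr20:59032336-59032585 (minus strand), SDHA at chr5:218070-218319 (plus), NDUFA4 at chr7:10940154-10940403 (minus) and UQCR10 at chr22:29767119-29767368 (plus).
ATP5E: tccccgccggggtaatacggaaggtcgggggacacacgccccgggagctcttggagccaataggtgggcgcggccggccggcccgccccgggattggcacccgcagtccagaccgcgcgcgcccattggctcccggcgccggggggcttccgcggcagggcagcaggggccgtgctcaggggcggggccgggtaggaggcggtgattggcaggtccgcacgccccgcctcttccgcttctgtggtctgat
SDHA: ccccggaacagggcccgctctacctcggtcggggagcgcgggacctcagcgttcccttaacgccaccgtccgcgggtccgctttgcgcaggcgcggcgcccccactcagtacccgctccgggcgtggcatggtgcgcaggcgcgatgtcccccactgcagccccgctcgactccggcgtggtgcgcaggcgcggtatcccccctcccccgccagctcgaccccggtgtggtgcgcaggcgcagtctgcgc
NDUFA4: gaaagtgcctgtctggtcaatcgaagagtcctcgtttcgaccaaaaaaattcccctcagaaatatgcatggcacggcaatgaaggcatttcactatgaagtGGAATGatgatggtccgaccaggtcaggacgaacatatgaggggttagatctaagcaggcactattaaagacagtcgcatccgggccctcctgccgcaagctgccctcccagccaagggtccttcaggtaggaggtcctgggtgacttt
UQCR10: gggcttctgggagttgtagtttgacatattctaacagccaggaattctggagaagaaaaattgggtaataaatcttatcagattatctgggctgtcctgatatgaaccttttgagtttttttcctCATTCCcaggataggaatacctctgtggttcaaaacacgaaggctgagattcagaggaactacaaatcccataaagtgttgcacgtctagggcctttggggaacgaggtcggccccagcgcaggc
The first 2 held none of the 5 motifs, and NDUFA4 and UQCR10 held 1 TEAD motif each, 149 and 125 bases before the start, in UQCR10 as its reverse complement CATTCC.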

How the data were processed

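RNA-seq libraries of 12 A375 cultures (4 groups of 3) were analysed from 1 deposited table. The authors deposited log2(FPKM + 1) values per locus; per the submitters' processing notes the tools were bcl2fastq 2.15.0, Bowtie2 2.0.0, TopHat2 2.0.4 and Cufflinks 2.0.2 on hg19. How multiply aligned reads were handled is not given in the sources used here. Read counts could not be recovered from the values, so depth is unknown and no counting interval was computed. Of 31588 rows, 3 exact repeats were removed; 2179 rows list several symbols and stand for a shared locus. FPKM is relative to all mapped fragments, so a change of abundant loci shifts the others.

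Differences were fitted with limma 3.58.1 (R 4.3.3; empirical Bayes with an intensity trend, 1 mean per group, two-sided) on log2(FPKM + 1), so the pseudocount is 1 and changes of low loci are understated. Loci needed 1 FPKM in at least 3 libraries. P-values were adjusted by Benjamini-Hochberg over 15055 loci, and 0.05 was the threshold. Groups came from the sample titles. The fit was tested on simulated data. Members and gene lists were chosen with earlier results of these data known. Named members were, per comparison and complex, up to 3 called members with the largest rise and 3 with the largest fall, every member called in YAP-S127A or YAP-S94A,S127A against Control, and fixed core subunits and isoform pairs. Some of these are given by counts alone, and COX17, ACAD9, TFB1M, TFB2M, OGDH, FH, SUCLG1, CS, UQCRH, UQCRHL, NDUFV2 and NDUFB11 were named after their values were seen. Alternatives were other scalings, filters, pseudocounts and thresholds, a replicate block, only the libraries compared, and each library left out. Gene positions come from GENCODE on GRCh37 and promoters from RefSeq on GRCh38.p14.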

Additional observations from a re-analysis of the deposited data

How the results depend on the processing

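The counts of called members depended on the threshold, the scaling and single libraries, and the cause was not tested. Quantile normalization gave 5 higher and 33 lower in YAP-2SA against Control, 5 and 14 in YAP-2SA against YAP-S127A, 6 and 33 in YAP-2SA against YAP-S94A,S127A, and 5 lower in YAP-S127A against Control. At an adjusted p under 0.01, 7 were higher in YAP-2SA against Control, 4 higher and 2 lower in YAP-2SA against YAP-S127A, 6 higher in YAP-2SA against YAP-S94A,S127A, 3 lower in YAP-S127A against YAP-S94A,S127A and 0 lower in YAP-S127A against Control. With a fold over 2 also required, 0 were higher and 2 lower in YAP-2SA against Control and against YAP-S94A,S127A, and 0 in each direction elsewhere. Counting only members on rows of 1 symbol gave 13 higher and 9 lower in YAP-2SA against Control. The same count gave 11 higher and 3 lower in YAP-2SA against YAP-S127A, and 11 and 14 against YAP-S94A,S127A. It gave 8 lower in YAP-S127A against YAP-S94A,S127A and 3 lower in YAP-S127A against Control. Restricting the fit to the 6 libraries of a comparison gave 0 lower in YAP-S127A against Control and 6 higher in YAP-2SA against YAP-S127A. Counting subunits only left out ATP5EP2, the other loci listed apart and the assembly factors. It gave 12 higher and 10 lower in YAP-2SA against Control and 2 lower in YAP-S127A against Control. It gave 11 higher and 3 lower in YAP-2SA against YAP-S127A, and 9 lower in YAP-S127A against YAP-S94A,S127A. In YAP-2SA against YAP-S94A,S127A it gave 10 higher and 16 lower. 

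With 1 library left out in turn, YAP-2SA against Control gave 9 to 16 higher and 10 to 15 lower, YAP-S127A against Control 0 to 2 lower, YAP-2SA against YAP-S127A 5 to 18 higher and 3 to 5 lower, YAP-S127A against YAP-S94A,S127A 4 to 16 lower, and YAP-2SA against YAP-S94A,S127A 7 to 14 higher and 13 to 19 lower. Summing FPKM over several loci of a symbol was not run, since each member symbol is on 1 locus.

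Replicate numbers were not shown to pair the libraries: same-number correlations of deviations ran from −0.149 to 0.163, and 5 of 12 libraries correlated best with their own number. With the replicate block, 12 were higher and 12 lower in YAP-2SA against Control, 2 lower in YAP-S127A against Control, 0 in YAP-S94A,S127A against Control, 11 higher and 6 lower in YAP-2SA against YAP-S127A, 11 lower in YAP-S127A against YAP-S94A,S127A, and 11 higher and 18 lower in YAP-2SA against YAP-S94A,S127A. Depth is unknown, so low loci such as NDUFA4L2 cannot be given a counting error.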
